A study of Mus musculus with 12 samples.

Results

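The genes examined here encode the protein subunits of the mitochondrial ribosome. They were chosen by symbol: every gene whose symbol starts with Mrpl or Mrps followed by a number and that reached 1 FPKM (fragments per kilobase of transcript, scaled to library depth) in at least 2 libraries. Of 22619 gene symbols in the files 76 had such a name, and all 76 passed that minimum, as did 14447 genes in all. The set holds 47 genes named for the large subunit (Mrpl) and 29 named for the small subunit (Mrps). They lie on 17 chromosomes.

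The libraries came from mouse embryos of the C57BL/6 strain and mouse embryonic stem (ES) cells of the 129Sv strain. Among embryos, 2 libraries were wild type and are called control embryo here. The other 6 were Dcaf11 knockouts, of which 3 carry the word arrest in their titles (KO arrest) and 3 do not (KO embryo). The ES cell groups were wild type (control ES, n = 2) and Dcaf11 knockdown (KD ES, n = 2). Dcaf11 encodes a substrate receptor of a CUL4-DDB1 ubiquitin ligase. The labels give no stage, sex, number of cells per library, knockout allele or knockdown reagent. Nor do they say whether the libraries within a group are from different embryos or cultures, and the spread behind each p-value may thus be technical.

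The mitochondrial ribosome translates the few messenger RNAs encoded by mitochondrial DNA, all of which encode subunits of the respiratory chain and the ATP synthase. Its ribosomal RNAs are made in the mitochondrion, but its proteins are encoded in the nucleus, made in the cytosol and imported. Part of these proteins have counterparts in bacterial ribosomes and part are specific to mitochondria: 46 of the 76 genes encode bacterial-type proteins, 29 encode mitochondria-specific proteins, and Mrps36 encodes a protein that is not in the solved ribosome and is known as a subunit of the oxoglutarate dehydrogenase complex. The mouse oocyte passes on its mitochondria to the embryo, and mitochondrial DNA replication resumes only around implantation.

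Control embryo 1 stood apart from the other libraries. It held 6573 genes at 1 FPKM or more, against 8535 to 10291 in the other embryo libraries. Across all kept genes, which are not independent replicates, its log2 values correlated with those of control embryo 2 at r = 0.774, against 0.888 to 0.970 within the other groups. Of the 76 genes, 15 were listed at 0 in it, against 4 in control embryo 2 and 0 to 3 in each other library, and 52 were lower in it than in control embryo 2. Depth could be read only as the coverage at 1 FPKM, which was 2.01 and 1.22 in control embryos and 0.373 to 1.32 in the others, so the zeros in control embryo 1 came from the library with the highest coverage per FPKM. Results that rest on the control embryos are therefore also given without control embryo 1.

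Marker genes of other cells differed between the groups as well. The sum over 12 oocyte and early embryo markers was 38175 and 52761 FPKM in control embryos, 12201 to 18161 in KO embryos and 921 to 1525 in KO arrest. In control embryos most of it was Omt2b, at 20739 and 27071, and Omt2a, at 15257 and 18938. Nlrp5, Ooep and Padi6 in KO arrest overlapped the controls, and the other oocyte and early embryo markers lay below both. The sum over 6 blood markers was 63.9 to 130 in control embryos, 223 to 335 in KO embryos and 0 to 0.743 in KO arrest. In KO arrest Ptprc, Lyz2, S100a8 and S100a9 were at 0 in every library, and Hba-a1 was at 0 in all 12 libraries of the series. Alas2 was at 0.743, 0.116 and 0 in KO arrest and at 0 in both control embryos. The sum over 12 two-cell embryo markers was 694 and 1119 in control embryos, 94.5 to 144 in KO embryos and 83.2 to 169 in KO arrest. In ES cells it was 49.2 and 60.4 in control ES and 6.24 and 6.48 in KD ES. Usp17ld, Tcstv1 and Tcstv3 were at 0 in all 12 libraries. The Zscan4 genes and Usp17lc in KO arrest lay below both controls, Tdpoz1 overlapped them and Tdpoz3 lay above both. Most of the KO arrest sum was Usp17lc, at 31.6 to 77.1, and Tdpoz1, at 13.4 to 66.7. Over 6 trophectoderm markers, of which Cdx2 was at 0 in all 8 embryo libraries, the sum was 0.696 and 27.0 in control embryos, 24.6 to 28.8 in KO embryos and 23.4 to 34.2 in KO arrest. Most of it in the knockout embryo libraries was Tfap2c. That gene was at 0.299 and 5.34 in control embryos, 24.2 to 27.7 in KO embryos and 16.4 to 28.2 in KO arrest. Eomes, Krt18 and Gata3 overlapped the controls in both knockout groups. Krt8 was at 0 in KO embryos and above both controls in KO arrest. The sum over 8 pluripotency markers was 2525 and 2466 in control ES and 2032 and 2239 in KD ES. In embryos it was 51.1 and 57.2 in control embryos, 20.8 to 38.5 in KO embryos and 68.0 to 153 in KO arrest. These markers did not move together: Tdgf1 was at 23.4, 97.0 and 96.7 in KO arrest and at 0 in both control embryos. Nanog and Utf1 in KO arrest also lay above both controls, Sox2 and Klf4 lay below both, and Pou5f1, Zfp42 and Esrrb overlapped them. Between the ES groups, Pou5f1, Zfp42, Esrrb, Klf4 and Utf1 were lower in both KD ES libraries than in both control ES libraries. Sox2 was higher, and Nanog and Tdgf1 overlapped. Esrrb was at 28.6 in KD ES 1 and 244 in KD ES 2. The sum over 8 fibroblast markers was 415 and 404 in control ES and 349 and 367 in KD ES. In embryos it was 15.5 and 61.8 in control embryos, 55.2 to 88.0 in KO embryos and 1.22 to 4.78 in KO arrest. In ES cells most of it was Vim, at 114 to 173, and Fn1, at 166 to 198. Vim was lower in both KD ES libraries than in both control ES libraries, and Fn1 was higher. Col1a1, Thy1, Vim and Fn1 were higher in every ES library than in every KO embryo library. Col3a1, Postn and Dcn were lower, and Col1a2 overlapped. The part of these differences in the results below was not tested, and in such libraries fewer cells of a type and less RNA per cell cannot be told apart. Dcaf11 itself ranged from 0.184 to 6.02 FPKM in the 6 knockout embryo libraries and was 2.82 and 14.3 in control embryos, so its level does not check the embryo labels. It was 1.69 and 1.83 in KD ES and 6.48 and 4.52 in control ES.

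The summed level of the 76 genes was lowest in control embryos and highest in KO arrest. The sum was 1007 and 1596 FPKM in control embryos, 3662, 3060 and 3414 in KO embryos and 6384, 7251 and 9194 in KO arrest. In ES cells it was 1717 and 1814 in the control and 1855 and 1877 in the knockdown libraries. The 5 groups did not overlap, and the order was control embryo, control ES, KD ES, KO embryo and KO arrest, although control ES and KD ES were only 1.06-fold apart in their means. The group means were 1301 ± 416 (SD, n = 2) in control embryos, 3379 ± 302 (n = 3) in KO embryos and 7610 ± 1439 (n = 3) in KO arrest, which puts KO embryo 2.60-fold and KO arrest 5.85-fold above control embryo. Against control embryo 2 alone the ratios were 2.12 and 4.77, and against control embryo 1 alone they were 3.35 and 7.56. As a share of the library's TPM, a length-scaled measure of transcript share, the genes made up 0.297% and 0.406% in control embryos, 0.852% to 0.932% in KO embryos, 1.33% to 1.65% in KO arrest and 0.470% to 0.532% in ES cells. On that scale KO arrest was 4.15-fold above control embryo, and the order of the groups was the same.

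The 76 genes did not move as a block of fixed proportions. In ES cells the upper quartile of the genes was 2.76 to 3.50 times the lower quartile, whereas in control embryo 2 it was 5.29 times, in control embryo 1 124 times, in KO embryos 6.47 to 8.05 times and in KO arrest 4.89 to 5.15 times. The median gene stood at 3.29 and 12.6 FPKM in control embryos, 17.3 to 24.4 in KO embryos, 58.1 to 72.8 in KO arrest and 17.4 to 19.8 in ES cells. The genes Mrps14, Mrpl18 and Mrpl40, which encode proteins of both subunits, made up 32.6% and 23.5% of the summed level in control embryos, 11.1% to 14.7% in KO embryos, 10.0% to 10.9% in KO arrest and 7.70% to 8.51% in ES cells; they were picked after their values were seen. The large subunit genes summed to 1.61 to 2.24 times the small subunit genes in every library, and the groups overlapped in this ratio.

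**Figure D1:**
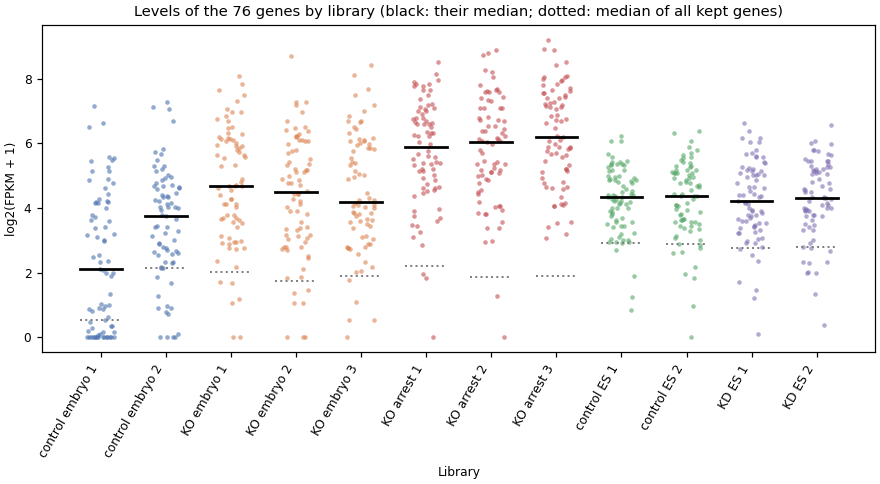
Level of each of the 76 mitochondrial ribosomal protein genes (points, log2(FPKM + 1)) in the 12 libraries, with the median of the genes as a black line and the median of all 14447 kept genes as a dotted line. The median gene is at 3.29 and 12.6 FPKM in control embryos and at 58.1 to 72.8 in KO arrest, and the points spread furthest in control embryo 1.

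Gene by gene, 63 of the 76 (82.9%) had group means in the order control embryo, KO embryo, KO arrest, against 28.4% of all 14447 kept genes. In 30 (39.5%) every control library lay below every KO embryo library, which in turn lay below every KO arrest library, against 4.54% of all kept genes. The highest of the 5 group means was that of KO arrest for 61 genes (80.3%, against 19.7% of all kept genes), KD ES for 7, KO embryo for 5, control ES for 2 and control embryo for 1, which was Mrps14. In 45 genes (59.2%) every KO arrest library was above all 9 other libraries, against 7.07% of all kept genes. The lowest group mean was that of control embryo for 52 genes (68.4%, against 38.1% of all kept genes) and of KO arrest for none of the 76.

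**Figure D2:**
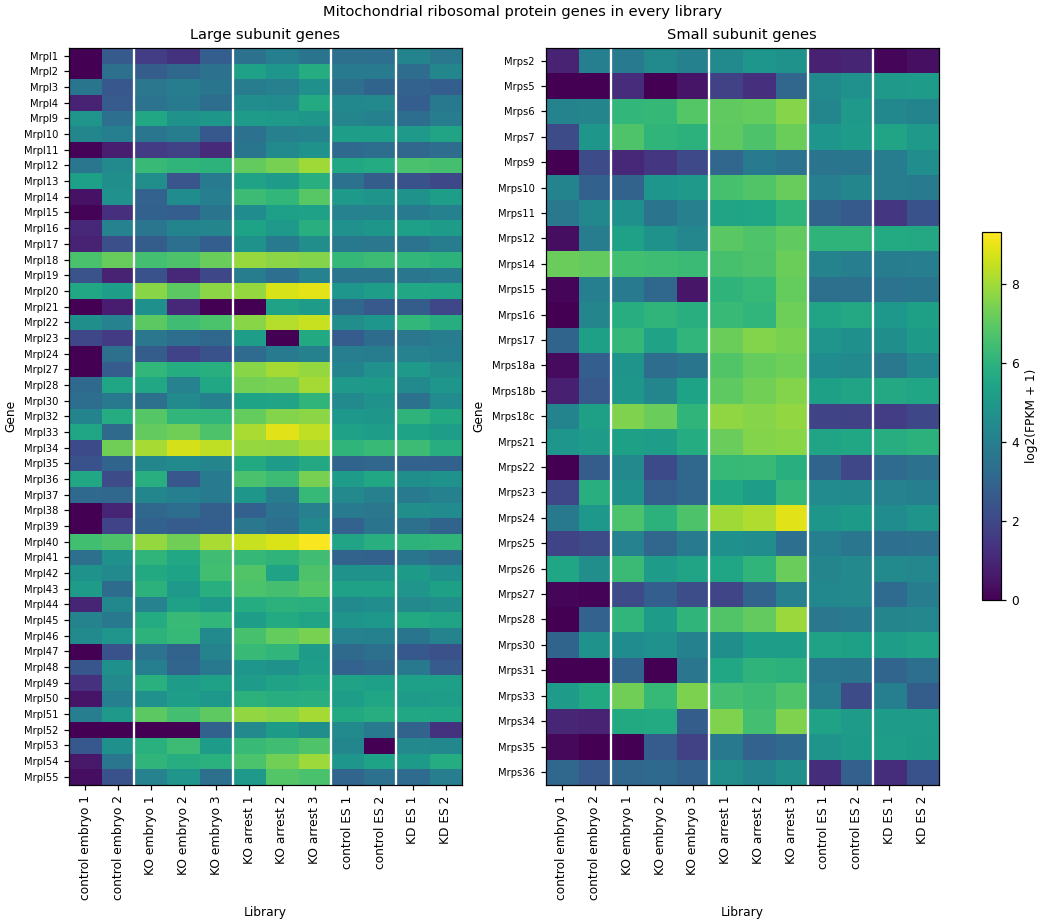
Levels of the 47 large subunit and 29 small subunit genes (rows) in the 12 libraries (columns, white lines between groups), coloured by log2(FPKM + 1). Most rows brighten from control embryo to KO arrest, with Mrps14 bright in all embryo libraries, and Mrps5 and Mrps35 brightest in ES cells.

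Part of the genes hold promoter words that the choice by name did not use. Windows of 300 bases around the transcription starts were available from RefSeq (GRCm38.p6) for 67 of the 76 genes, with 73 promoters. The genes without one were Mrpl4, Mrpl13, Mrpl15, Mrpl19, Mrpl38, Mrpl54, Mrps28, Mrps34 and Mrps35. NRF1, the ETS factor GABP and YY1 are known regulators of nuclear genes for mitochondrial proteins, and one core word of each was searched on both strands. The NRF1 word GCATGCGC was in 8 of the 73 promoters (11.0%) against 2.71% of all 32851 promoters, the ETS word CCGGAAGT in 12 (16.4%) against 3.89%, and the YY1 word AAGATGGC in 12 (16.4%) against 2.75%. At least 1 of the 3 words was in 29 promoters (39.7%), against 8.83% of all. The set of all promoters was not limited to those of the kept genes. The upstream stretches of 150 bases, ending at the last base before the start, show these words next to a promoter without one. Matched words are in capitals wherever either strand reads as the word, and the genes were picked after their values were seen: Mrpl22 and Mrpl32 rose in KD ES cells, Mrpl22, Mrpl33, Mrpl51 and Mrps22 rose in KO arrest, and Mrps14 has the highest mean of the 76 genes in control embryos. Mrpl22 (chr11:58171514-58171663, plus strand), Mrpl32 (chr13:14613038-14613187, minus strand) and Mrpl33 (chr5:31613801-31613950, plus strand) hold the NRF1 word, Mrpl51 (chr6:125192050-125192199, plus strand) and Mrps22 (chr9:98601680-98601829, minus strand) the ETS word, and Mrps14 (chr1:160195065-160195214, plus strand) none of the 3.
Mrpl22: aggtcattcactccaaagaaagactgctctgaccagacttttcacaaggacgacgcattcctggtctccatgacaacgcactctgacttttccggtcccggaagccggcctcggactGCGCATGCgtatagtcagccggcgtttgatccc
Mrpl32: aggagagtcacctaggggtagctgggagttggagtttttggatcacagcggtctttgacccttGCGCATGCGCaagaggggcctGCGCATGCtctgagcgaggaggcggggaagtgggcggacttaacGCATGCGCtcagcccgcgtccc
Mrpl33: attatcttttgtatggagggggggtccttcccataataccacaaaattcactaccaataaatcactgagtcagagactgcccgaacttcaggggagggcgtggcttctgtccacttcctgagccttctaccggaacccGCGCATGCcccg
Mrpl51: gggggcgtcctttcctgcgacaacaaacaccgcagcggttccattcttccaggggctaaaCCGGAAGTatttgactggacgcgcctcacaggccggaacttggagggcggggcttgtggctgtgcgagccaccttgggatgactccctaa
Mrps22: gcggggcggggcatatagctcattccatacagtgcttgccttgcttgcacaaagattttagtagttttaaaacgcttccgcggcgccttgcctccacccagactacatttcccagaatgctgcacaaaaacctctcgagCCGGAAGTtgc
Mrps14: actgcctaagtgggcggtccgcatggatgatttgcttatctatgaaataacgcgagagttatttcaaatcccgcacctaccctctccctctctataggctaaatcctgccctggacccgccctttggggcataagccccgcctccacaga
The Mrpl32 stretch holds 4 matches to the NRF1 word, of which 2 overlap because GCGCATGCGC reads as the word on both strands. The word begins 33 bases before the start in Mrpl22, 12 bases before it in Mrpl33 and 11 bases before it (the ETS word) in Mrps22. A match is a description of the letters and not of a bound site. Of the 29 genes with a word 21, and of the 38 without 28, were called higher in KO arrest than in control embryos, with median log2 fold changes of 2.86 and 2.85.

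The genes also often sit back to back with a neighbour. A gene on the other strand with its start within 1000 bases, facing away, was found for 26 of the 76 genes (34.2%), against 12.5% of 14062 kept genes with a position. Mrpl46 and Mrps11, which encode a large and a small subunit protein, form such a pair with each other, 42 bases apart. Other neighbours act in mitochondria too: Mrps12 lies next to Sars2, the mitochondrial seryl-tRNA synthetase, Mrpl43 next to Peo1, the mitochondrial DNA helicase Twinkle, and Mrpl47 next to Ndufb5, a subunit of respiratory complex I. In KO arrest against control embryos 21 of the 26 genes with such a neighbour and 36 of the 50 without were called higher. The genes Mrpl19, Mrpl24, Mrpl41, Mrpl48, Mrpl49, Mrps25 and Mrps27 (7 of 76) overlap a gene on the opposite strand and 2 (Mrpl53 and Mrps6) overlap one on their own strand. Read strand is not stated, so reads of these genes and of their partners cannot be told apart, and Mrpl23, Mrpl48 and Mrps36 have named pseudogenes that may share reads.

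Fold changes below are differences of log2(FPKM + 1), which understates the change of low genes, given with the standard error (SE). They come from limma fitted over all genes kept, with Benjamini-Hochberg adjustment over all of them, and a gene is called at an adjusted p under 0.05. The KO embryo and KO arrest groups were each compared with the same 2 control embryos, so the results of those comparisons are not independent.

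In KO arrest embryos most mitochondrial ribosomal protein genes stood well above control embryos: 57 of the 76 (75%) were called higher and none lower. Over all 11795 genes tested 16.4% were called higher and 8.87% lower. Mrpl52, which is among the 57, and Mrps5 reached the minimum of the embryo fit only through KO arrest. The median log2 fold change was 2.91 for the 76 genes and 0.45 for all genes, 74 of the 76 were above 0, and the 57 called genes ranged from 1.48 to 6.49. In 68 genes every KO arrest library was above both controls, against 31.3% of all genes, and in none were all of them below, against 17.5% of all genes. By name, 34 of 47 large subunit genes (median 2.87) and 23 of 29 small subunit genes (median 3.06) were called, as were 33 of 46 bacterial-type (median 3.09) and 23 of 29 mitochondria-specific genes (median 2.86). Without control embryo 1, 48 genes were called higher with a median of 2.12, against 0.16 for all genes.

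Mrpl27 (mm9 chromosome 11), which encodes a bacterial-type protein of the large subunit near the peptidyl transferase centre, had the smallest p. It stood at 0 and 5.45 FPKM in control embryos, 69.9, 53.4 and 56.3 in KO embryos and 198, 263 and 225 in KO arrest. The 3 embryo groups did not overlap, and ES cells, at 17.3 to 31.3, lay between control and KO embryos. The log2 fold change was 6.49 ± 0.66 (SE) in KO arrest against control embryos (limma, adjusted p = 0.000266) and 5.14 without control embryo 1 (adjusted p = 0.000291).

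Mrps18b followed. Mouse has 3 Mrps18 genes, whose proteins occupy different places: that of Mrps18c is the small subunit counterpart of the bacterial protein, that of Mrps18b is a mitochondria-specific small subunit protein, and that of Mrps18a sits in the large subunit despite its name. Mrps18b was at 0.773 and 5.02 FPKM in control embryos, 29.0, 18.4 and 41.2 in KO embryos and 127, 159 and 188 in KO arrest, with no overlap, a log2 fold change in KO arrest of 5.58 ± 0.58 and an adjusted p of 0.000281. Mrps18a was at 0.21 and 5.94 in control embryos, 27.1, 8.95 and 11.2 in KO embryos and 108, 135 and 152 in KO arrest, a log2 fold change of 5.51 ± 0.73 in KO arrest (limma, adjusted p = 0.000725). Mrps18c was at 17.3 and 38.0 in control embryos, 179, 145 and 66.1 in KO embryos and 216, 195 and 222 in KO arrest, a log2 fold change of 2.98 ± 0.50 in KO arrest (limma, adjusted p = 0.00235). All 3 genes rose in KO arrest, but they differed in ES cells: Mrps18a stood at 12.4 to 22.2 and Mrps18b at 37.7 to 47.8, while Mrps18c stood at 2.24 to 3.07.

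Mrpl22, which encodes a protein of the wall of the peptide exit tunnel, was at 23.6 and 16.6 FPKM in control embryos, 123, 86.8 and 99.4 in KO embryos and 201, 305 and 367 in KO arrest. The groups did not overlap, and the log2 fold change in KO arrest was 3.77 ± 0.40 (limma, adjusted p = 0.000304). Mrps24, a small subunit gene and the most abundant of the Mrps genes over the 12 libraries, was at 12.6 and 30.0 in control embryos, 102, 61.7 and 102 in KO embryos and 249, 294 and 473 in KO arrest, a log2 fold change of 3.99 ± 0.48 (limma, adjusted p = 0.000477). The calls of Mrpl27, Mrps18b, Mrpl22 and Mrps24 in KO arrest against control embryos held under all 20 alternatives run.

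Of the genes with other known roles most rose as well. Mrpl12, whose protein in human cells also binds the mitochondrial RNA polymerase, was at 11.4 and 21.1 FPKM in control embryos and 134, 169 and 252 in KO arrest, a log2 fold change of 3.44 ± 0.43 (limma, adjusted p = 0.000557). Mrps34, whose protein is needed for small subunit stability, was at 0.983 and 0.86 in control embryos and 178, 91.0 and 181 in KO arrest, a log2 fold change of 6.23 ± 0.82 (adjusted p = 0.000685). Mrpl41, which lies on the opposite strand of an overlapping gene, was at 9.71 and 24.5 in control embryos and 73.0, 65.8 and 87.3 in KO arrest, a log2 fold change of 2.20 ± 0.49 (adjusted p = 0.00896). The call of Mrpl44, whose protein has a ribonuclease III domain, rested on control embryo 1, where it stood at 0.965 FPKM against 19.1 in control embryo 2: its log2 fold change of 3.23 ± 0.82 (limma, adjusted p = 0.0164) was 1.56 without that library (adjusted p = 0.0678). Mrps36 rose by 1.63 ± 0.50 (limma, adjusted p = 0.0357), a call that was lost in 13 of 20 alternatives. Mrps30, whose protein sits in the large subunit, was not called, at 7.08 and 26.4 in control embryos and 23.5, 35.3 and 35.7 in KO arrest (log2 fold change 1.10 ± 0.57, limma, adjusted p = 0.185).

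The most abundant large subunit genes differed from each other. Mrpl40 had the highest mean of the 76 genes, at 88.8 and 103 FPKM in control embryos and 367, 439 and 588 in KO arrest, a log2 fold change of 2.24 ± 0.38 (limma, adjusted p = 0.00248). Mrpl20, whose bacterial counterpart binds early in large subunit assembly, was at 45.9 and 35.5 in control embryos and 229, 422 and 481 in KO arrest, a log2 fold change of 3.12 ± 0.43 (limma, adjusted p = 0.000862). Mrpl34 was at 3.23 and 154 in control embryos, 271, 412 and 338 in KO embryos and 225, 220 and 267 in KO arrest. All 6 knockout libraries were above both controls, but the controls were so far apart that the log2 fold change of 3.21 ± 1.09 in KO arrest was not called (limma, adjusted p = 0.0526), and it was 0.61 without control embryo 1.

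The 19 genes not called ranged from -0.29 to 3.21 in log2 fold change. Mrps14 and Mrpl10 lay nearest to 0. Mrps14, a small subunit gene whose bacterial counterpart sits in the head of the subunit, was at 142 and 133 FPKM in control embryos, 88.2, 84.4 and 79.0 in KO embryos and 94.8, 103 and 147 in KO arrest, and KO arrest overlapped the controls (log2 fold change -0.29 ± 0.36, limma, adjusted p = 0.589). Mrpl10, whose bacterial counterpart anchors the ribosomal stalk, was at 18.3 and 15.2 in control embryos and 9.95, 15.7 and 16.7 in KO arrest (log2 fold change -0.26 ± 0.56, limma, adjusted p = 0.762). Mrpl52 and Mrps31 were listed at 0 in both control embryos and called higher in KO arrest. Mrpl52 then stood at 19.7, 32.9 and 24.1 FPKM and Mrps31 at 47.0, 64.4 and 61.7, and no fold is given against a group at 0. Of the 76 genes, Mrpl52 and Mrps5 passed the filter on low values in the embryo fit only through KO arrest. The call of Mrpl52 in KO arrest thus follows in part from the filter.

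**Figure D3:**
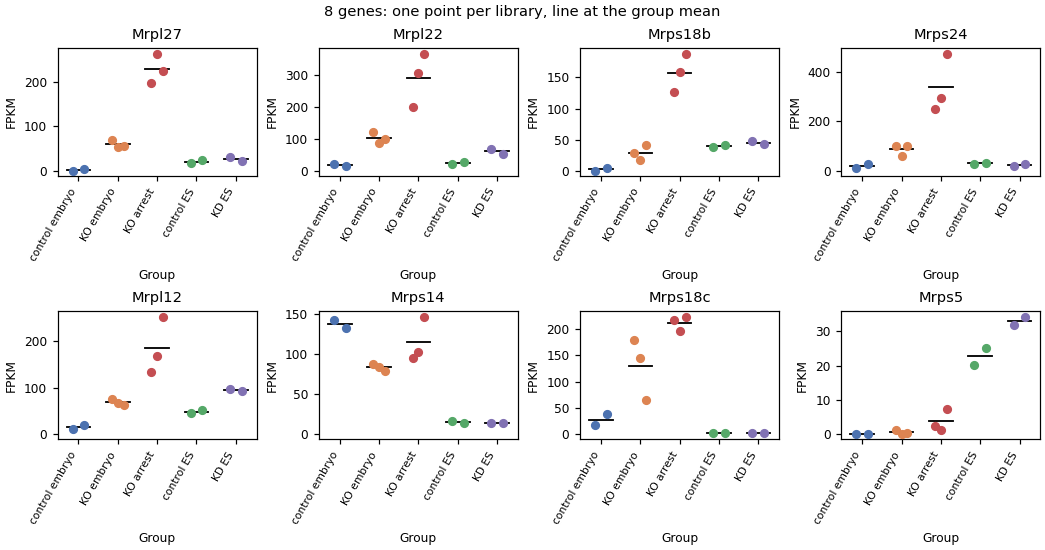
FPKM of 8 genes in every library (points) with the group mean (line), on axes that differ between panels. Mrpl27, Mrpl22, Mrps18b, Mrps24 and Mrpl12 climb from control embryo through KO embryo to KO arrest, Mrps14 overlaps between control embryo and KO arrest and is low in ES cells, Mrps18c is near 0 in ES cells, and Mrps5 is highest in ES cells.

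In the knockout embryos not titled arrest the same comparison called fewer genes: 19 of the 76 (25%) were higher than in control embryos and none lower. Over all 11795 genes 4.86% were called higher and 1.5% lower. The median log2 fold change was 1.58 for the 76 genes and 0.31 for all genes, and 71 of the 76 were above 0. In 43 genes the groups did not overlap and KO embryo was higher, against 24.2% of all genes, and in 3 KO embryo was lower, against 12.1% of all genes. The called genes were Mrpl12, Mrpl15, Mrpl20, Mrpl22, Mrpl27, Mrpl33, Mrpl38, Mrpl41, Mrpl45, Mrpl51 and Mrpl54 of the large subunit and Mrps6, Mrps7, Mrps16, Mrps18b, Mrps18c, Mrps24, Mrps28 and Mrps34 of the small subunit, 12 of the bacterial type and 7 mitochondria-specific, with log2 fold changes from 1.98 to 4.57. The count depended on single libraries: without control embryo 1 it was 11 (median 1.10, against 0.02 for all genes) and without control embryo 2 it was 40. Leaving out the first, second or last KO embryo library gave 1, 9 and 3, and leaving out KO arrest 2 gave 12. It was 6 with median-of-ratios scaling, which moved the median of all genes from 0.31 to -0.05 and left the 76 genes 1.15 above it, against 1.27 before.

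The 4 genes with the smallest p were Mrpl27, Mrpl22, Mrps28 and Mrpl51. Mrpl27 had a log2 fold change of 4.57 ± 0.66 (limma, adjusted p = 0.00708) and was called under all 20 alternatives. Mrpl22 had one of 2.31 ± 0.40 (limma, adjusted p = 0.0137). Mrps28, of the small subunit, was at 0 and 6.60 FPKM in control embryos and 68.4, 33.5 and 66.2 in KO embryos, a log2 fold change of 4.30 ± 0.77 (limma, adjusted p = 0.0145) and of 2.84 without control embryo 1. Mrpl51, a mitochondria-specific large subunit gene, was at 14.8 and 31.3 in control embryos and 123, 89.8 and 128 in KO embryos, a log2 fold change of 2.32 ± 0.42 (limma, adjusted p = 0.0147). No KO embryo library of Mrps28 or Mrpl51 overlapped the controls, but the calls of Mrpl22, Mrps28 and Mrpl51 were lost without KO embryo 1 or without KO embryo 3.

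Among the genes of known roles and the most abundant ones, several were called here. Mrpl12 stood at 76.5, 67.1 and 63.4 FPKM in KO embryos, a log2 fold change of 2.07 ± 0.43 (limma, adjusted p = 0.0233), and Mrpl20 at 201, 124 and 204, one of 2.06 ± 0.43 (adjusted p = 0.0233). Mrps34 stood at 49.2, 51.0 and 5.68, so 1 library was well below the other 2, with a log2 fold change of 3.76 ± 0.82 (limma, adjusted p = 0.0273). Mrps18b rose by 3.15 ± 0.58 (limma, adjusted p = 0.0159), Mrps18c by 2.17 ± 0.50 (adjusted p = 0.0329), Mrps24 by 2.09 ± 0.48 (adjusted p = 0.0331) and Mrpl41 by 1.98 ± 0.49 (adjusted p = 0.0402). Of these, Mrpl20 and Mrps18b were still called without control embryo 1, while Mrpl12, Mrps34, Mrps18c, Mrps24 and Mrpl41 were not, at adjusted p from 0.0653 to 0.128. Mrpl34 had a log2 fold change of 3.71 ± 1.09 (limma, adjusted p = 0.0709), Mrpl40 of 1.16 ± 0.38 (adjusted p = 0.0978), Mrps18a of 2.37 ± 0.73 (adjusted p = 0.0809), Mrpl44 of 2.17 ± 0.82 (adjusted p = 0.142), Mrps30 of 0.54 ± 0.57 (adjusted p = 0.633) and Mrps36 of 0.20 ± 0.50 (adjusted p = 0.856). Mrps14 was lower in all 3 KO embryo libraries than in both controls, yet its log2 fold change of -0.71 ± 0.36 was not called (limma, adjusted p = 0.275).

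KO arrest was also compared with KO embryo directly, without the control embryos in the contrast. Here 13 of the 76 genes (17.1%) were called higher and none lower, where 4.93% of all genes were called higher and 3.65% lower. The median log2 fold change was 1.39, against 0.07 for all genes, and 71 of the 76 were above 0. In 58 genes every KO arrest library was above every KO embryo library, against 19.4% of all genes, and in 2 genes every one was below, against 17.7% of all genes. By name, 5 of the called genes were large subunit genes (Mrpl11, Mrpl22, Mrpl28, Mrpl30 and Mrpl52) and 8 were small subunit genes (Mrps10, Mrps15, Mrps18a, Mrps18b, Mrps21, Mrps22, Mrps24 and Mrps31), of which Mrps18a encodes a protein of the large subunit. The 13 called genes had log2 fold changes from 1.46 to 3.97. Among them, Mrpl52 passed the filter on low values only through KO arrest, so its call follows in part from the filter. Leaving out either control embryo raised the count well above 13, although these libraries are not in the contrast itself. They enter through the shared estimate of the spread, the filter on low values and the adjustment over the genes kept. The count was 3, 2 and 5 without KO embryo 1, 2 and 3, 7 without KO arrest 1, and 1 without KO arrest 2 or KO arrest 3. On the deposited TPM scale 2 genes were called and the median of all genes moved to -0.28.

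Mrps21, of the small subunit, had the smallest p. It was at 38.2, 34.9 and 53.6 FPKM in KO embryos and 145, 190 and 201 in KO arrest, while the control embryos, at 28.8 and 34.1, lay just below the KO embryos. Its log2 fold change was 2.06 ± 0.35 (limma, adjusted p = 0.00802), called under all 20 alternatives, and against control embryos KO embryo had one of 0.39 ± 0.39 (adjusted p = 0.601). Mrps18a had a log2 fold change of 3.13 ± 0.65 (limma, adjusted p = 0.0186). Mrpl11, a large subunit gene whose bacterial counterpart lies at the base of the stalk where elongation factors bind, was at 2.18, 2.59 and 1.14 in KO embryos and 11.2, 20.6 and 26.0 in KO arrest, a log2 fold change of 2.73 ± 0.57 (limma, adjusted p = 0.0190). Mrpl52 was listed at 0 in 2 KO embryo libraries and stood at 6.42 in the third, with all 3 KO arrest libraries above it. As it passed the filter only through KO arrest, no fold change or p-value is given for it, although it is counted among the called genes.

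Of the genes of known roles and the abundant ones, Mrps18b (log2 fold change 2.43 ± 0.52, limma, adjusted p = 0.0201) and Mrps24 (1.90 ± 0.43, adjusted p = 0.0238) rose again. Mrpl12 (1.37 ± 0.39, adjusted p = 0.0533), Mrps34 (2.47 ± 0.73, adjusted p = 0.0622), Mrps36 (1.43 ± 0.45, adjusted p = 0.0726), Mrpl40 (1.08 ± 0.34, adjusted p = 0.0742) and Mrpl20 (1.06 ± 0.38, adjusted p = 0.113) were not called in the same limma fit. Without control embryo 1, Mrpl12, Mrps34, Mrps36 and Mrpl40 were called, at adjusted p from 0.0171 to 0.0439. Mrps18c (0.81 ± 0.45), Mrpl44 (1.06 ± 0.73), Mrps30 (0.56 ± 0.51), Mrps14 (0.42 ± 0.32), Mrpl41 (0.22 ± 0.44) and Mrpl34 (-0.50 ± 0.97) had adjusted p from 0.277 to 0.792.

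**Figure D4:**
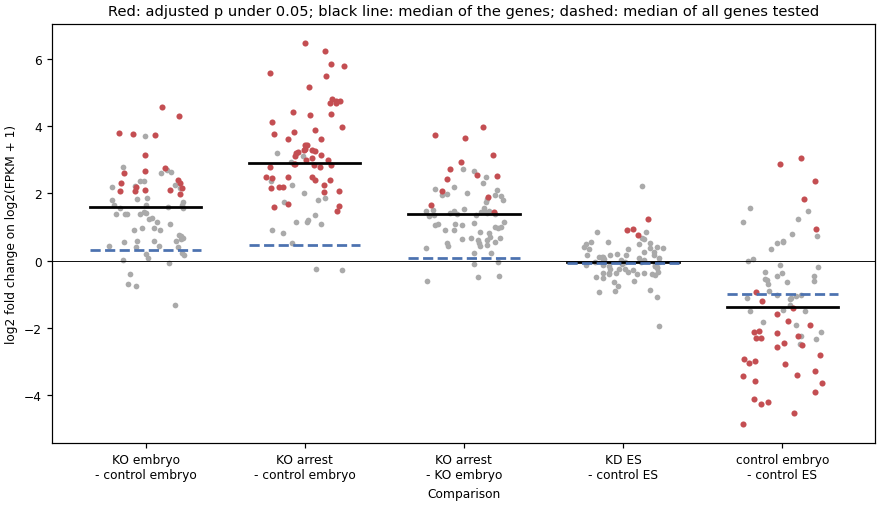
Log2 fold change of each mitochondrial ribosomal protein gene (points) in 5 comparisons, with genes called at an adjusted p under 0.05 in red, the median of the genes as a black line and the median of all genes tested as a dashed line. The median of the genes lies above that of all genes in the 3 embryo comparisons (1.58 against 0.31, 2.91 against 0.45 and 1.39 against 0.07), and around it in KD ES cells (-0.04 against -0.09).

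The knockdown in ES cells moved few of the genes. Of 75 genes tested (Mrps2 did not reach the minimum in the 4 ES libraries), 4 were called higher and none lower, which is 5.33%, where 2.59% of all 12264 genes were called higher and 3.64% lower. The median log2 fold change was -0.04, against -0.09 for all genes, with 36 of the 75 above 0. The libraries separated in 21 genes with KD ES higher, against 25.3% of all genes, and in 24 with KD ES lower, against 37.1%. All 4 called genes belong to the large subunit: Mrpl12, Mrpl22, Mrpl32 and Mrpl38.

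Mrpl12 was at 46.7 and 51.4 FPKM in control ES and 97.8 and 93.1 in KD ES, a log2 fold change of 0.95 ± 0.09 (limma, adjusted p = 0.0285). Mrpl22 was at 22.9 and 28.2 in control ES and 69.9 and 54.0 in KD ES, a log2 fold change of 1.24 ± 0.18 (limma, adjusted p = 0.0407). Both KD libraries were above both controls in each of the 4 genes. Mrpl32, whose protein is cut into its mature form by the m-AAA protease before assembly, was at 29.8 and 29.4 in control ES and 64.5 and 49.5 in KD ES, a log2 fold change of 0.91 ± 0.15 (limma, adjusted p = 0.0481). Mrpl38, a mitochondria-specific gene, was at 13.7 and 11.7 in control ES and 23.3 and 21.5 in KD ES, a log2 fold change of 0.77 ± 0.13 (limma, adjusted p = 0.0485). With 2 libraries a group these calls depended on single libraries: 1 gene was called without control ES 1, none of the 75 without control ES 2, 1 without KD ES 1, and none of the 75 when all 12 libraries shared a fit. Without KD ES 2 there were 5 calls, 3 higher and 2 lower, and with a minimum of 5 FPKM there were 7, of which 2 were lower.

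None of the other genes of known roles or high abundance that were tested was called in the knockdown. Their log2 fold changes were 0.55 ± 0.16 for Mrpl41 (limma, adjusted p = 0.110), 0.50 ± 0.14 for Mrpl20 (adjusted p = 0.0989), 0.39 ± 0.17 for Mrpl40, 0.18 ± 0.11 for Mrps18b, 0.01 ± 0.13 for Mrpl44, -0.01 ± 0.20 for Mrps18c, -0.06 ± 0.11 for Mrps30, -0.11 ± 0.22 for Mrpl34, -0.11 ± 0.12 for Mrps34, -0.12 ± 0.12 for Mrps14, -0.26 ± 0.68 for Mrps36, -0.34 ± 0.14 for Mrps24 and -0.44 ± 0.23 for Mrps18a. These values are small beside those of the embryos, and the difference of the effects was tested directly in a fit of all 12 libraries. The effect of the knockout in embryos minus that of the knockdown in ES cells was called above 0 for 3 of the 76 genes, Mrpl51, Mrps6 and Mrpl27, and below 0 for none, where 2.06% of all 14447 genes were called above 0 and 0.623% below. Its median was 1.40 for the 76 genes and 0.30 for all genes. Without control embryo 1 the count was 6 and without control embryo 2 it was 29, it was 1 without KO embryo 1 or KO embryo 3 and 2 without KO arrest 2, and it was 0 without any 1 of the 4 ES libraries.

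Between wild-type embryos and wild-type ES cells most calls were lower in embryos, for the 76 genes as for all genes. Control embryo was called lower for 31 genes (40.8%), which is the share of all 14447 genes called lower, 40.8%, and higher for 5 genes, against 12.6% of all genes. The median log2 fold change was -1.38, against -1.01 for all genes. The libraries separated in 45 genes with control embryo lower, against 55.2% of all genes, and in 11 with it higher, against 19.2%. Strain and cell type differ together here and cannot be told apart. The split of the calls depended on the scaling, with 12 genes higher and 20 lower under median-of-ratios scaling and 11 higher and 22 lower under quantile normalization, against 5 and 31. Without control embryo 1 it was 8 higher and 27 lower, and without control ES 2 it was 2 higher and 17 lower.

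The genes higher in control embryos were Mrps14, Mrps18c, Mrps33, Mrpl13 and Mrpl40. Mrps14, at 142 and 133 FPKM in control embryos and 16.9 and 14.7 in control ES, had a log2 fold change of 3.05 ± 0.28 (limma, adjusted p = 2.11e-05), called under all alternatives run. Mrps18c, at 17.3 and 38.0 against 2.75 and 2.57, had one of 2.87 ± 0.49 (limma, adjusted p = 0.00086). Mrps33, a mitochondria-specific small subunit gene, stood at 34.5 and 49.7 against 13.9 and 3.52, with a log2 fold change of 2.37 ± 0.63 (limma, adjusted p = 0.0101). Mrpl13, at 37.4 and 23.6 against 10.3 and 5.71, had one of 1.82 ± 0.64 (adjusted p = 0.0349), and Mrpl40 one of 0.94 ± 0.33 (adjusted p = 0.0368), and neither of these was called without control embryo 1.

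Of the 31 genes lower in control embryos, those with the smallest p were Mrps5, Mrpl15, Mrps27 and Mrpl38. Mrps5, a bacterial-type protein gene of the small subunit, was listed at 0 in both control embryos and stood at 20.3 and 25.1 FPKM in control ES and 31.7 and 34.0 in KD ES (limma, adjusted p = 0.000149). In the knockout embryos it stayed low, at 0 to 1.26 in KO embryos and 1.41 to 7.34 in KO arrest. Mrps35, a mitochondria-specific small subunit gene, was likewise at 0 to 12.6 in all 8 embryo libraries and 27.4 to 35.7 in ES cells. Mrpl15 was at 0.0601 and 1.44 in control embryos and 16.3 and 16.8 in control ES (log2 fold change -3.45 ± 0.49, limma, adjusted p = 0.000252). Mrps27, which encodes an RNA-binding pentatricopeptide repeat protein and overlaps a gene on the opposite strand, was at 0.112 and 0.0732 against 19.3 and 19.8 (log2 fold change -4.23 ± 0.61, limma, adjusted p = 0.000289). Mrpl38, at 0 and 0.958 against 13.7 and 11.7, had a log2 fold change of -3.29 ± 0.48 (limma, adjusted p = 0.000326). Mrps34 (-4.28 ± 0.85), Mrps18b (-3.65 ± 0.55), Mrps18a (-2.95 ± 0.74) and Mrpl12 (-1.59 ± 0.36) were also lower, and Mrps30 (-1.43 ± 0.52, adjusted p = 0.0405) was, but not without control embryo 1 (-0.55, adjusted p = 0.257). Mrpl41 (1.13 ± 0.45), Mrps36 (0.80 ± 0.56), Mrpl20 (0.35 ± 0.39), Mrps24 (-0.64 ± 0.46), Mrpl34 (-1.52 ± 1.21) and Mrpl44 (-1.83 ± 0.85) were not called, with adjusted p from 0.056 to 0.473.

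Other genes of mitochondrial translation were taken from lists. Of 7 mitochondrial ribosomal proteins whose genes have other names, 6 were tested in the embryo fit, where Dap3 did not reach the minimum. Of the 6, 3 (50%, against 4.86% of all genes) were higher in KO embryos than in control embryos (median 2.15). In KO arrest 5 (83.3%, against 16.4% of all genes) were higher than in control embryos (median 3.64). Chchd1, of the small subunit, was at 0 and 2.28 FPKM in control embryos, 8.52, 12.4 and 15.8 in KO embryos and 155, 186 and 260 in KO arrest, a log2 fold change in KO arrest of 6.76 ± 0.58 (limma, adjusted p = 0.000141). Gadd45gip1, of the large subunit, was at 5.04 and 15.5 in control embryos and 228, 203 and 443 in KO arrest, a log2 fold change of 4.78 ± 0.58 (limma, adjusted p = 0.000477). Mrp63, of the large subunit, rose in KO embryos by 2.65 ± 0.67 (limma, adjusted p = 0.0437). Dap3, a GTP-binding small subunit protein, stayed at 0 to 1.02 FPKM in all 8 embryo libraries and was at 5.20 to 8.13 in ES cells.

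Further lists held the factors that build, load or serve the ribosome. Their counts are to be read against the 16.4% of all genes called higher and 8.87% called lower in KO arrest, and the 4.86% called higher in KO embryos. Of 25 assembly and ribosomal RNA modification genes 7 (28%) were higher and 1 lower in KO arrest than in control embryos (median 1.53), among them Wbscr16 (3.23 ± 0.64, limma, adjusted p = 0.00528) and Malsu1, an anti-association factor of the large subunit (3.06 ± 0.67, adjusted p = 0.00863), and none was called in KO embryos. Of 16 translation factors 2 (12.5%) were higher in KO arrest (median 1.07), a share below that of all genes, Mrrf, the ribosome recycling factor (2.78 ± 0.74, limma, adjusted p = 0.0207) and Pdf, the peptide deformylase (2.42 ± 0.68, adjusted p = 0.0254), and 2 in KO embryos (median 1.03), Slirp, an RNA stability factor, and Pdf (2.79 ± 0.68, adjusted p = 0.0394). Of 17 mitochondrial aminoacyl-tRNA synthetases none was called in KO embryos, and in KO arrest 2 (11.8%, also below the share of all genes) were higher, Wars2 (2.85 ± 0.78, limma, adjusted p = 0.0236) and Sars2 (2.26 ± 0.73, adjusted p = 0.0435), and 1 was lower (median 0.33). Without control embryo 1 the calls of Wars2, Sars2, Mrrf and Pdf in KO arrest were lost, as were those of Chchd1, Mrp63, Slirp and Pdf in KO embryos. Mars2, the methionyl-tRNA synthetase, fell from 27.5, 29.4 and 17.0 FPKM in KO embryos to 3.04, 4.98 and 4.63 in KO arrest, a log2 fold change of -2.28 ± 0.51 (limma, adjusted p = 0.0232).

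Of 9 genes for mitochondrial transcription and DNA maintenance, 2 (22.2%, against 16.4% of all genes) were higher in KO arrest than in control embryos. They were Tefm, the transcription elongation factor, and Tfam, which packages mitochondrial DNA and starts its transcription. Tefm was at 0.536 and 11.9 FPKM in control embryos, 89.4, 78.8 and 128 in KO embryos and 51.5, 163 and 71.8 in KO arrest. Its log2 fold change was 4.46 ± 0.80 in KO embryos (limma, adjusted p = 0.0148), 4.27 ± 0.80 in KO arrest (adjusted p = 0.00409) and, in KD against control ES, where it stood at 25.4 and 20.9 against 9.31 and 8.62, 1.27 ± 0.14 (adjusted p = 0.0314). Tfam was at 0.18 and 4.79 in control embryos and 27.0, 20.9 and 15.5 in KO arrest, a log2 fold change of 3.05 ± 0.70 (limma, adjusted p = 0.0103). Of 8 regulator genes, which include Nrf1, Gabpa and Yy1, none was called in any of the 3 embryo comparisons. Nrf1 stood at 4.03 and 1.85 FPKM in control embryos and 5.27 to 9.27 in KO arrest, and Yy1 at 216 and 58.8 in control embryos and 40.2 to 96.4 in KO arrest.

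Cytosolic ribosomal protein genes and respiratory chain genes, set beside them, were also higher. Of 86 cytosolic ribosomal protein genes 40 (46.5%, against 4.86% of all genes) were higher in KO embryos (median 1.86). In KO arrest 75 (87.2%, against 16.4%) were higher and 1 lower (median 3.45), and their summed level was 3.13-fold and 11.9-fold that of control embryos, compared with 2.60-fold and 5.85-fold for the mitochondrial ones. Of 80 respiratory chain genes 17 (21.3%) were higher in KO embryos (median 1.42) and 51 (63.8%) in KO arrest (median 2.63), with sums 2.39-fold and 5.60-fold those of control embryos. In KD ES cells, where 3.64% of all genes were called lower, 13 of 78 respiratory chain genes (16.7%) were lower and 1 higher (median -0.25), and 11 of 84 cytosolic ribosomal protein genes (13.1%) were lower and 6 higher. No test of the difference between the sets was made.

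**Figure D5:**
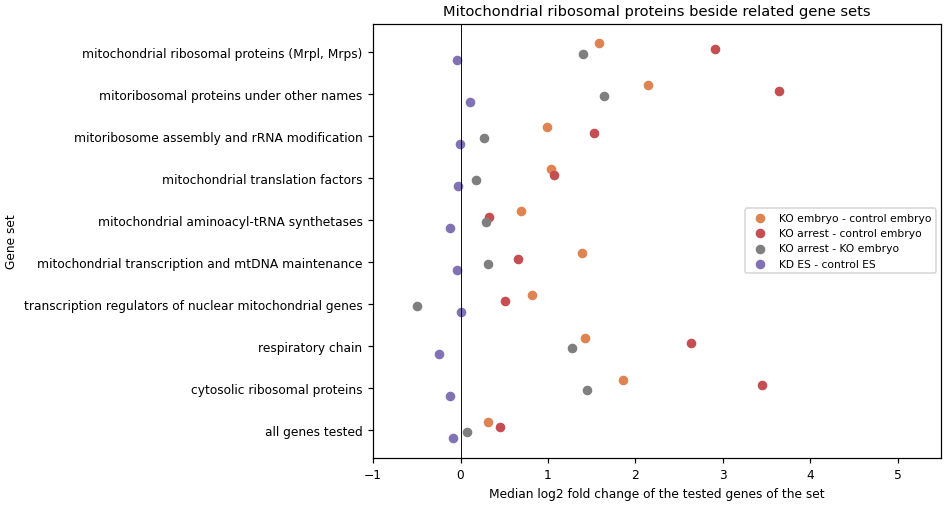
Median log2 fold change of the tested genes of each set (rows) in 4 comparisons (colours). Mitochondrial ribosomal proteins, at 2.91 in KO arrest against control embryo, lie between respiratory chain genes at 2.63 and cytosolic ribosomal proteins at 3.45, and above aminoacyl-tRNA synthetases at 0.33 and all genes at 0.45.

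Transcript length moved with these results. The 76 genes have short transcripts, with a median of 1302 bases against 2863 for all kept genes, and shorter genes were higher in KO arrest at large: the Spearman correlation of log2 fold change with length was -0.26 over 11701 genes and -0.32 over the 76, as a description across genes that share libraries. Within genes of under 1000 bases the median log2 fold change in KO arrest against control embryos was 3.83 for the 24 mitochondrial ribosomal protein genes and 1.33 for all 1034 genes. From 1000 to 2000 bases it was 2.50 for 29 genes and 0.98 for all 2591, and from 2000 bases up it was 2.49 for 23 genes and 0.22 for all 8076. With the trend of each library on length removed, 52 genes were called higher in KO arrest than in control embryos (median 2.55, against 0.49 for all genes) and 22 in KO embryos (median 1.56, against 0.32), while KO arrest against KO embryo fell from 13 called genes to 8 (median 0.90, against 0.12).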

How the data were processed

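Smart-seq2 libraries of 8 embryo and 4 ES cell samples were grouped by the titles in the labels. STAR (listed as 0.6.0), StringTie, DESeq2 and the build mm9 are named per the submitters' processing notes; their settings and the annotation were not given in the sources used here. The authors deposited, per gene and library, FPKM, TPM and coverage, a signal proportional to depth; no counts, so no count model and no counting interval were used. Rows without a gene name (0.549% to 1.19% of FPKM) were left out and FPKM was summed per symbol.

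limma 3.58.1 (R 4.3.3, variance trend) was fitted to log2(FPKM + 1) of all genes that reached 1 FPKM in 2 or more libraries of the fit: 8 embryo libraries for the embryo contrasts, 4 for the knockdown, and 12 for embryo against ES and the difference of effects. P-values are two-sided and adjusted by Benjamini-Hochberg over all genes kept. Tables used Python 3.11.15, pandas 2.3.3, numpy 2.4.6 and matplotlib 3.10.9. The fit was tested on simulated data. Transcript lengths came from GENCODE (GRCm38) by symbol for 76 of 76 genes.

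Genes given in full are, per comparison, the 4 called genes with the smallest p in each direction, the 3 most abundant of each subunit, the 2 nearest 0 in KO arrest, 9 genes of special roles, and of each list of related genes the 2 called with the smallest p. The genes, lists and tests were chosen with earlier results of these data known. The fits were repeated with TPM, with median-of-ratios scaling or quantile normalization, with a pseudocount of 0.1, with a minimum of 5 FPKM or none, with other libraries in the fit, library weights, a log2 fold change of at least 1, the replicate number as a block, length-trend removal (lowess span 0.3), and each library left out.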

Additional observations from a re-analysis of the deposited data

Results flagged for a closer look

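For 3 of the 76 genes the effect of the knockout in embryos differed from that of the knockdown in ES cells by a test of the difference itself (limma, 12 libraries). That is 3.95% called above 0, against 2.06% of all 14447 genes. Mrpl51 changed by 2.50 ± 0.48 (log2) more in KO embryos than in KD ES cells (adjusted p = 0.0280), Mrps6 by 2.58 ± 0.50 (adjusted p = 0.0287) and Mrpl27 by 4.21 ± 0.92 (adjusted p = 0.0461). Mrps6 stood at 16.8 and 17.7 FPKM in control embryos, 69.7, 71.7 and 115 in KO embryos, 18.4 and 31.3 in control ES and 19.0 and 17.5 in KD ES. Mrpl27 was listed at 0 in control embryo 1, and without that library its difference was 2.86 (adjusted p = 0.0110). The 3 calls depended on single libraries: with one library left out, that of Mrpl27 was lost in 10 of 12 fits, that of Mrpl51 in 6 and that of Mrps6 in 5. Over all 22 alternatives they were lost in 15, 8 and 8, with adjusted p up to 0.188, 0.143 and 0.151. Embryos and ES cells differ in strain, cell type and the means of loss of Dcaf11, which cannot be told apart here. No group held enough libraries for a search for outlying samples.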

How the results depend on the processing

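No mitochondrial ribosomal protein gene was called lower in the 3 embryo comparisons under any alternative run, and the median of these genes stayed above that of all genes by 1.08 to 1.51 (KO embryo against control), 1.96 to 2.91 (KO arrest against control) and 0.79 to 1.55 (KO arrest against KO embryo) on the log2 scale. Median-of-ratios scaling moved the median of all genes from 0.31 to -0.05, from 0.45 to 0.02 and, for control embryo against control ES, from -1.01 to -0.43. The number of genes called was far less stable, and where no cause is named it was not tested. For KO embryo against control it was 19, and 7 with no filter, 6 with median-of-ratios scaling or only the groups compared, 2 with library weights and 1 to 40 with single libraries left out. For KO arrest against control it was 57, and 40 with library weights, 46 with no filter or median-of-ratios scaling, 47 with only the groups compared and 48 with TPM. With single KO embryo or KO arrest libraries left out it was 45 to 54. For KO arrest against KO embryo it was 13, and 5 with a pseudocount of 0.1, 2 with no filter or TPM, 42 with only the groups compared, 26 with all 12 libraries, 40 with library weights, 8 with the length trend removed and 1 to 41 with single libraries left out. For the knockdown it was 4, and 2 with a pseudocount of 0.1 or the length trend removed, 1 with no filter, TPM or a log2 fold change of at least 1, 7 with a minimum of 5 FPKM, 0 with all 12 libraries and 0 to 5 with single libraries left out. For control embryo against control ES it was 36, and 17 with only the groups compared and 19 to 46 with single libraries left out. For the difference of effects it was 3, and 0 with median-of-ratios scaling, 5 with the length trend removed and 0 to 29 with single libraries left out.

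Deviations of same-numbered libraries from their group means correlated at -0.10 to 0.02. In a group of 2 libraries the deviations mirror each other, so this check is weak and cannot exclude that the replicate numbers pair the libraries. With the replicate block the counts were 1 for KO embryo against control, 49 for KO arrest against control, 7 for KO arrest against KO embryo, 0 for the knockdown, 34 for control embryo against control ES and 0 for the difference of effects.

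Single genes were followed through the alternatives only where the naming rule picked them, which covers 13 of the 57 genes called in KO arrest against control, 11 of 19 in KO embryo against control, 6 of 13 in KO arrest against KO embryo, 4 of 4 in the knockdown and 14 of 36 in control embryo against control ES. Among those, signs turned only for genes not called in the comparison as reported. In KO embryo against control Mrps30 was at -0.10 and Mrps36 at -0.43 with median-of-ratios scaling, Mrps36 was at -0.0051 with quantile normalization, and with single libraries left out Mrps30 ranged from -0.34 to 1.42 and Mrps36 from -0.049 to 0.44. In KO arrest against KO embryo Mrps14 was at -0.019 and Mrpl41 at -0.22 with TPM, and Mrpl41 was at -0.013 with quantile normalization, -0.41 with the length trend removed and -0.027 to 0.44 with single libraries left out. In the knockdown Mrps18c was at 0.023 with TPM, 0.047 with median-of-ratios scaling, 0.11 with quantile normalization and 0.044 with the length trend removed, and Mrps30 was at 0.022 with median-of-ratios scaling. With single ES libraries left out Mrps18c ranged from -0.18 to 0.15, Mrps30 from -0.15 to 0.039, Mrpl44 from -0.093 to 0.11, Mrps34 from -0.24 to 0.027, Mrpl34 from -0.39 to 0.17 and Mrps36 from -1.07 to 0.55. In control embryo against control ES Mrps24 was at 0.34 with median-of-ratios scaling, Mrpl20 at -0.49 and Mrps36 at -0.077 with the length trend removed, and with single libraries left out Mrps36 ranged from -0.0098 to 1.62 and Mrpl34 from -4.12 to 1.08, the last without control embryo 1 (limma, adjusted p = 0.0234).

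The deposited values give no counts, so the sampling error of low genes is unknown, and 2 or 3 libraries a group limit the precision. A group left with a lone library is taken to vary as the other groups do.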
